A study of Mus musculus with 6 samples.

Results

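The microRNAs described here are miR-219 and miR-338, read in the dentate gyrus, a hippocampal region that keeps making new neurons in adults. They were picked by assay name from the raw threshold cycles of a TaqMan card, as mmu-miR-219, rno-miR-219-1-3p, rno-miR-219-2-3p and mmu-miR-338-3p, which are 4 of the 381 assays on the card. The tissue was the right dentate gyrus of 3 mice in kainic acid-induced status epilepticus (KA-SE) and of 3 mice given saline. KA-SE mice received repeated low doses of kainic acid, a glutamate receptor agonist that provokes seizures, by intraperitoneal injection, and only mice with prolonged convulsive seizures were kept. Saline mice received matching injections of saline. All mice were male C57/Black6J animals of 6 to 8 weeks, and the dentate gyrus was cut out under the microscope 72 h after the injections. Each library came from 1 mouse and 800 ng of total RNA, so the replicates are separate animals.

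A microRNA is cut from a hairpin precursor, and the mature RNA can come from its 5′ side (the 5p arm) or its 3′ side (the 3p arm). miR-219 and miR-338 are known from oligodendrocytes, the myelin-forming cells of the brain. Both accumulate as oligodendrocyte precursors stop dividing and mature, and miR-219 is known to repress factors that hold these cells in the precursor state, such as the growth factor receptor Pdgfra and the transcription factor Sox6. miR-219 has also been described in neurons, in NMDA receptor signalling. Mice have a pair of genes for it, Mir219a-1 and Mir219a-2. Both give the same 5p arm, whereas each gives a 3p arm of its own. The assay mmu-miR-219 thus reads the output of both genes, and each 3p assay is named for 1 gene.

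The sequences show which parts the assays share. They are the mouse sequences of RefSeq (GRCm38.p6), which held 3 of the 4 mature RNAs, and the capitals mark the seed (bases 2 to 8), the part that pairs with a target mRNA.
mmu-miR-219a-5p, read by mmu-miR-219: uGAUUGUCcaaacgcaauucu
mmu-miR-219a-1-3p, the arm that rno-miR-219-1-3p is named for: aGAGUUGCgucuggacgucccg
mmu-miR-338-3p: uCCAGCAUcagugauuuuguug
The 3 seeds differ from each other, and none is the seed of another of the 1679 mature mouse microRNAs in that table. Of mmu-miR-219a-2-3p only the hairpin is shown. In both hairpins below the capitals mark the shared 5p arm, and the 3p arm follows after the loop.
Mir219a-1 hairpin: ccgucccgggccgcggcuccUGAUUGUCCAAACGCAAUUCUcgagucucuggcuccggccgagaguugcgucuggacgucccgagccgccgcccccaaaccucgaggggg
Mir219a-2 hairpin: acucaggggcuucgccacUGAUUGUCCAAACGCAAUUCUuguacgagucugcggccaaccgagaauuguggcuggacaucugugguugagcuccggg
Both miR-219 3p assays were designed for the rat, and whether rat and mouse arms are identical was not checked here. Where they are called the arms of Mir219a-1 and Mir219a-2 below, this rests on the assay names.

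The 3 genes lie on different chromosomes. Mir219a-1 is at chr17:34024983-34025092 on the minus strand, 303 bp from Ring1, the nearest protein-coding gene, and the microRNA gene Mir219c is annotated on the opposite strand of the same stretch. Mir219a-2 is at chr2:29845631-29845727 on the minus strand. It lies within the span of Cercam, which is on the plus strand, and overlaps Mir219b, also on the plus strand. Mir338 is at chr11:120014765-120014862, within the span of Aatk, a kinase gene of the nervous system on the same strand. Exon positions were not used here, so exonic and intronic placement is not given.

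Each assay gives a threshold cycle (Ct), reached when its fluorescence passes a set level during PCR, so a lower Ct means more RNA, by a factor that doubles per cycle if amplification is perfect. A Ct of 40 is listed where nothing amplified. Ct values of different assays depend on the assay too, and a lower Ct of one assay than of another need not mean more copies. The level of a microRNA is here its lead over or lag behind the small nuclear RNA U6 of that library, taken as U6 Ct minus its own Ct, a log2 scale. U6 itself had a raw Ct of 13.2 ± 0.41 in KA-SE and 13.4 ± 0.49 in saline mice (SD, n = 3 each; exact permutation test, two-sided, p = 0.7). With 3 mice a group an exact permutation test cannot go below p = 0.1. All 4 assays had a Ct below 35 in all 6 libraries and were tested with 281 microRNAs in all. Saline replicate 2 stood apart. Its tested microRNAs came up later than the mean of saline replicates 1 and 3 by a median of 2.23 cycles (quartiles 1.53 and 3.19), while its controls came up later by 0.603 to 0.861 cycles. Results are therefore also given without it. In whole tissue, fewer cells of a type and less RNA per cell cannot be told apart.

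The raw Ct of mmu-miR-219, the arm of both genes, was 22.8, 23.8 and 23.5 in KA-SE replicates 1, 2 and 3, against 22.4, 29.0 and 24.985 in saline replicates 1, 2 and 3. The KA-SE mice lay within 1.05 cycles of each other and the saline mice were spread over 6.60 cycles, with the KA-SE values inside the saline range.
rno-miR-219-1-3p, the arm of Mir219a-1, had a raw Ct of 27.5, 29.0 and 28.6 in KA-SE replicates 1, 2 and 3, against 29.3, 34.985 and 30.3 in saline replicates 1, 2 and 3. Every KA-SE mouse came up earlier than every saline mouse. Saline replicate 2 was thus only just below the detection limit of 35.
rno-miR-219-2-3p, the arm of Mir219a-2, had a raw Ct of 22.5, 23.0 and 23.5 in KA-SE replicates 1, 2 and 3, against 23.0, 24.4 and 23.0 in saline replicates 1, 2 and 3. The groups overlapped, and this was the steadiest of the 4 assays in saline mice.
mmu-miR-338-3p had a raw Ct of 24.4, 24.9 and 24.8 in KA-SE replicates 1, 2 and 3, against 24.5, 28.0 and 24.8 in saline replicates 1, 2 and 3. Saline replicates 1 and 3 lay among the KA-SE mice, and saline replicate 2 lay apart from all of them.

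**Figure D1:**
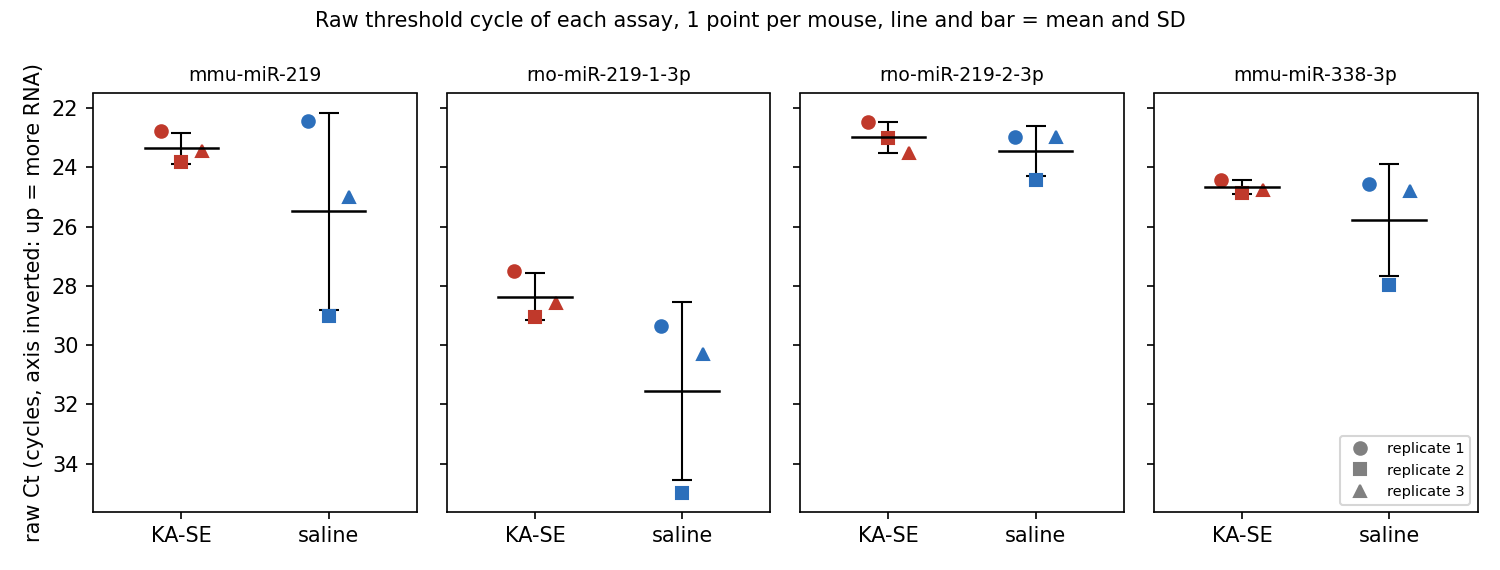
Raw Ct (cycles, axis inverted so that up is more RNA) of the 4 assays in KA-SE and saline mice, 1 point per mouse with the replicate as its symbol, and the mean and SD (n = 3) in black. The 3 KA-SE points of rno-miR-219-1-3p sit above all saline points, and saline replicate 2 is the lowest point in every panel, at 34.985 cycles in that one.

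By mean raw Ct, KA-SE mice had rno-miR-219-2-3p at 23.0 ± 0.53, mmu-miR-219 at 23.4 ± 0.53, mmu-miR-338-3p at 24.7 ± 0.24 and rno-miR-219-1-3p at 28.4 ± 0.80, and saline mice had them in the same order at 23.5 ± 0.84, 25.5 ± 3.3, 25.8 ± 1.9 and 31.5 ± 3.0 (SD, n = 3 each). In KA-SE mice rno-miR-219-2-3p and mmu-miR-219 did not differ beyond their spread, since their order changed between mice. In saline mice the order of mmu-miR-219 and mmu-miR-338-3p changed too. rno-miR-219-1-3p came up last in each of the 6 libraries. Among the 281 microRNAs, counted from the lowest mean Ct, rno-miR-219-2-3p was number 122, mmu-miR-219 number 167, mmu-miR-338-3p number 185 and rno-miR-219-1-3p number 261.

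Relative to U6, rno-miR-219-1-3p had the most positive difference between groups of the 281 microRNAs, and no member passed the test. Its level was -15.1 ± 0.39 in KA-SE and -18.2 ± 2.6 in saline mice (SD, n = 3 each), a log2 difference of 3.02 (standard error 1.17, 95% interval 0.27 to 5.77), or 8.09-fold. The groups did not overlap, in a direction in which 19.2% of the 281 microRNAs did not overlap either. Its unadjusted p in limma was 0.0356 and its adjusted p was 0.556. An unadjusted p below 0.05 was found for 7 microRNAs higher after KA-SE (2.49%) and 1 lower. The call, which needed an adjusted p below 0.05 and a change of 1.5-fold or more, was made for 0 of 281 microRNAs (0.0%) by limma, and for 0 by the methods' t-test. Without saline replicate 2 the log2 difference of rno-miR-219-1-3p was 1.54 (standard error 0.31, adjusted p = 0.401 in limma), number 6 of the 293 microRNAs then tested. Its place also depended on the detection limit, as it was number 13 of the 317 microRNAs with a Ct below 35 in at least 3 libraries and number 32 of 375 with no limit. Leaving out saline replicate 2 could not make the groups overlap, and of those 293 microRNAs 19.8% did not overlap in this direction.

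For mmu-miR-219 the level was -10.1 ± 0.13 in KA-SE and -12.1 ± 2.8 in saline mice (SD, n = 3 each), a log2 difference of 1.96 (standard error 1.27, 95% interval -1.03 to 4.94, adjusted p = 0.556 in limma). It was the 8th largest increase of the 281, yet 1 saline mouse, replicate 1, had more of it than any KA-SE mouse. Without saline replicate 2 the difference was 0.43 (standard error 0.60), and without saline replicate 1 it was 3.23. The size of the difference in this arm thus depended on which saline mice were included.
mmu-miR-338-3p had a level of -11.4 ± 0.17 in KA-SE and -12.4 ± 1.5 in saline mice (SD, n = 3 each), with a log2 difference of 0.93 (standard error 0.74, 95% interval -0.80 to 2.67, adjusted p = 0.572 in limma). It was 0.08 (standard error 0.21) without saline replicate 2.
rno-miR-219-2-3p had a level of -9.76 ± 0.38 in KA-SE and -10.1 ± 0.49 in saline mice (SD, n = 3 each), with a log2 difference of 0.30 (standard error 0.47, 95% interval -0.79 to 1.39, adjusted p = 0.721 in limma). Without saline replicate 2 it was 0.06 (standard error 0.31). Relative to the mean of all tested microRNAs its direction turned, to -0.35.

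Most microRNAs had a positive difference relative to U6, and the 4 differences are read against that shift of the whole card. Of the 281 microRNAs 245 were positive, with a median of 0.62 (quartiles 0.29 and 1.08). mmu-miR-219 and rno-miR-219-1-3p lay above the upper quartile, mmu-miR-338-3p between the median and that quartile, and rno-miR-219-2-3p between the lower quartile and the median. Relative to the mean of all tested microRNAs, where the median was -0.04, the log2 differences were 2.36 for rno-miR-219-1-3p, 1.30 for mmu-miR-219 and 0.28 for mmu-miR-338-3p, with adjusted p of 0.464, 0.528 and 0.671 in limma. With saline replicate 2 also left out they were 1.42, 0.31 and -0.034. On that scale the groups did not overlap for rno-miR-219-1-3p, as for 12.8% of all microRNAs in that direction, and they overlapped for the other 3 assays.

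**Figure D2:**
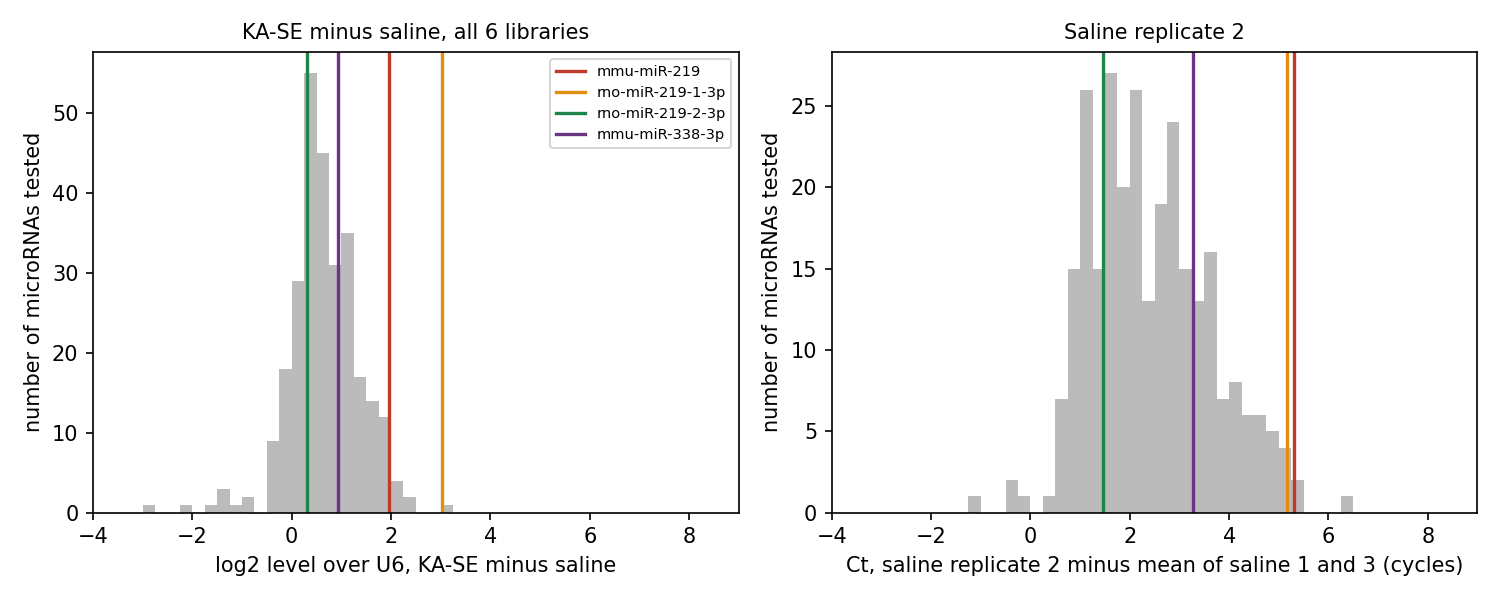
Histograms of the 281 tested microRNAs, with a line for each of the 4 assays. Left, the log2 level over U6, KA-SE minus saline, where rno-miR-219-1-3p lies at 3.02, past every other of these 281. Right, the Ct of saline replicate 2 minus the mean of saline replicates 1 and 3, where mmu-miR-219 lies at 5.32 cycles and rno-miR-219-2-3p at 1.46.

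The 5p arm and the Mir219a-1 arm were among the microRNAs that saline replicate 2 read latest, and the Mir219a-2 arm was not. Against the mean of saline replicates 1 and 3, this library was later by 5.32 cycles for mmu-miR-219 (the 3rd latest of 281), 5.16 cycles for rno-miR-219-1-3p (the 5th), 3.28 cycles for mmu-miR-338-3p (the 66th) and 1.46 cycles for rno-miR-219-2-3p (the 213th). The other saline mice also differed in mmu-miR-219, which came up 2.57 cycles later in saline replicate 3 than in replicate 1, the 12th widest gap of the 281. For rno-miR-219-2-3p that gap was 0.003 cycles. Relative to U6 the SD of mmu-miR-219 was 0.13 in KA-SE mice, below the median of 0.20 over the 281 microRNAs, and 2.84 in saline mice, the 4th highest, where the median was 0.98.

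Differences between assays of the same library need no reference RNA, and they were used to ask whether the arms moved together. In the 6 pairs of the 4 assays, those that held rno-miR-219-1-3p were the pairs whose groups did not overlap. Over all 39340 pairs of tested microRNAs, 23.9% did not overlap in one direction or the other.
rno-miR-219-1-3p came up 4.70, 5.21 and 5.13 cycles after mmu-miR-219 in KA-SE replicates 1, 2 and 3, against 6.93, 5.97 and 5.32 cycles in saline replicates 1, 2 and 3. The means were 5.01 ± 0.27 in KA-SE and 6.07 ± 0.81 in saline mice (SD, n = 3 each), which differ by -1.06 cycles (exact permutation test, two-sided here and below, p = 0.1, adjusted over the 6 pairs p = 0.2). Thus rno-miR-219-1-3p was nearer to the shared 5p arm in all KA-SE mice than in the saline mice. The nearest values, 5.21 in KA-SE replicate 2 and 5.32 in saline replicate 3, lay close together. The difference was -0.63 cycles without saline replicate 1, and in the authors' normalized table the groups overlapped (-0.83 cycles, exact permutation test, p = 0.3).
The distance from rno-miR-219-1-3p to rno-miR-219-2-3p, the 3p arms of the 2 genes, was 5.03, 6.04 and 5.07 cycles in KA-SE replicates 1, 2 and 3, against 6.38, 10.6 and 7.34 cycles in saline replicates 1, 2 and 3. The means were 5.38 ± 0.57 in KA-SE and 8.09 ± 2.2 in saline mice (SD, n = 3 each), a difference of -2.71 cycles (exact permutation test, p = 0.1, adjusted p = 0.2), or -1.48 cycles without saline replicate 2. All KA-SE mice were thus below all saline mice, which leaving out a library cannot change.
rno-miR-219-2-3p minus mmu-miR-219 was -0.328, -0.830 and 0.058 cycles in KA-SE replicates 1, 2 and 3, against 0.547, -4.59 and -2.02 cycles in saline replicates 1, 2 and 3. Here the groups overlapped. The difference was 1.65 cycles (exact permutation test, p = 0.4, adjusted p = 0.48), and it was 0.37 without saline replicate 2 and 2.94 without saline replicate 1.

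**Figure D3:**
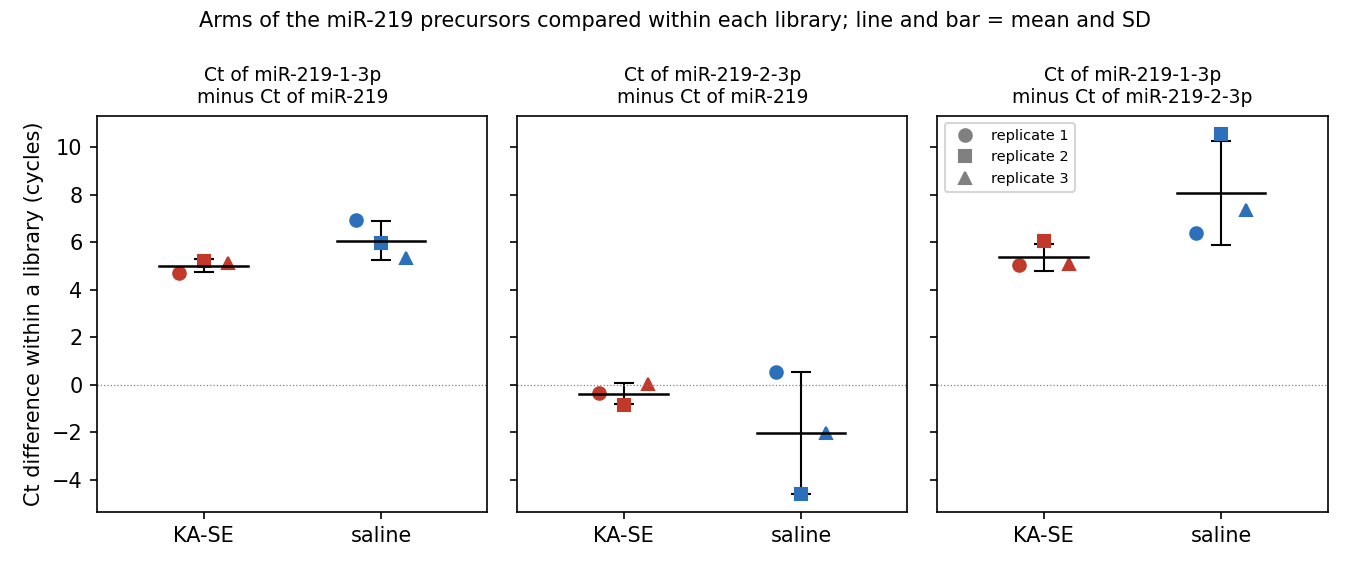
Differences in Ct (cycles) between arms of the miR-219 precursors within each library, in KA-SE and saline mice, 1 point per mouse, with the mean and SD (n = 3) in black. The distance of miR-219-1-3p from either other arm is smaller in all KA-SE mice, at 5.01 and 5.38 cycles on average against 6.07 and 8.09 in saline, and the saline points of miR-219-2-3p minus miR-219 run over 5.14 cycles.

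Against mmu-miR-338-3p the picture of rno-miR-219-1-3p was the same. The Ct of mmu-miR-338-3p minus that of rno-miR-219-1-3p was -3.08, -4.18 and -3.83 cycles in KA-SE replicates 1, 2 and 3, against -4.80, -7.03 and -5.50 cycles in saline replicates 1, 2 and 3, without overlap (exact permutation test, p = 0.1, adjusted p = 0.2). The pairs of mmu-miR-338-3p with mmu-miR-219 and with rno-miR-219-2-3p overlapped, with differences of 1.02 and -0.63 cycles (exact permutation tests, p = 0.4 and 0.6, adjusted p = 0.48 and 0.6). With saline replicate 2 left out these were 0.34 and -0.026 cycles, and without saline replicate 1 they were 1.94 and -0.9985 cycles. Against all 280 other tested microRNAs in turn, rno-miR-219-1-3p was relatively higher in all 3 KA-SE mice than in all 3 saline mice for 246, relatively lower for 0, and overlapped for 34. No other microRNA had a higher count. mmu-miR-338-3p was relatively higher against 36 and lower against 14, rno-miR-219-2-3p higher against 11 and lower against 25, and mmu-miR-219 higher against 5 and lower against 1. When saline replicate 2 was left out, mmu-miR-338-3p was higher against 40 and lower against 46. For rno-miR-219-1-3p the count without that library was also 246, the 3rd highest, with 33.6% of all pairs then not overlapping. Leaving out a library cannot lower such a count, so its staying at 246 is no check of it.

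Other microRNAs assayed on both arms give a scale for these arm differences. There were 19 such pairs with both arms tested, all of mouse assays. Each miR-219 pair instead sets a rat-designed 3p assay named for 1 gene against a mouse 5p assay of both genes. The scale is therefore a rough one. In the 19 the 3p minus 5p difference ran over a median of 1.34 cycles across the 6 libraries (lowest 0.436, highest 3.21). For miR-219 it ran over 5.14 cycles with the Mir219a-2 arm, wider than in all 19, and over 2.22 cycles with the Mir219a-1 arm, where 6 of 19 were wider. KA-SE minus saline, the 19 pairs lay between -1.20 and 1.15 cycles, and 5 of them did not overlap between groups. The Mir219a-1 pair, at -1.06 cycles, was inside that span, with 3 pairs larger in size, and the Mir219a-2 pair, at 1.65 cycles, was outside it. Both placings depended on saline replicate 2. Without it the Mir219a-2 pair ran over 2.565 cycles, with 1 of 19 wider, and its difference of 0.37 cycles lay inside the span of the 19, then -0.43 to 0.65 cycles. The Mir219a-1 pair, at -1.11 cycles, then lay outside that span, and 1 of 19 ran wider than its 2.22 cycles.

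The microRNAs most like each assay were taken as those whose Ct difference from it had the smallest SD over the 6 libraries, among 280 others. For mmu-miR-219 they were miR-29b (SD 0.21 cycles), miR-153 (0.28) and miR-142-3p (0.51), against a median SD of 1.61 over the 280. rno-miR-219-1-3p was number 21 in that order (0.79), mmu-miR-338-3p number 70 and rno-miR-219-2-3p number 205. The nearest to rno-miR-219-1-3p were miR-190 (0.60), miR-122 (0.65) and miR-488 (0.66), with mmu-miR-219 number 9. For rno-miR-219-2-3p they were miR-325 (0.13), miR-329 (0.15) and miR-369-5p (0.16). From this arm, mmu-miR-219 was number 273 and rno-miR-219-1-3p number 277 of the 280. Nearest to mmu-miR-338-3p were miR-20a, miR-872 and miR-143 (each 0.12), and the nearest of the other members, rno-miR-219-2-3p, was number 177 (0.79). No member was thus among the 3 most like another. Saline replicate 2 weighs on each of these SDs, since the same 6 libraries enter all of them.

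Other microRNAs with known roles in the oligodendrocyte lineage were read on the same cards. Of 17 listed, 16 were tested, and all 16 had a positive log2 difference over U6, where 245 of 281 microRNAs did. Without saline replicate 2 the positive ones were 11 of 16, and relative to the mean of tested microRNAs they were 8 of 16. The median was 0.82, beside 0.62 for all microRNAs, and 6 of 16 had no overlap with KA-SE higher, beside 19.2% of all. None passed limma's test (smallest adjusted p = 0.556). Without saline replicate 2 the median was 0.24, beside 0.13 for all microRNAs. The 3 with the lowest mean Ct were miR-9, which neural progenitors and neurons also express, with a raw Ct of 14.4 ± 0.40 in KA-SE and 15.7 ± 1.8 in saline mice, miR-138, which neurons also express, with 16.0 ± 0.22 in KA-SE and 17.2 ± 1.6 in saline mice, and miR-145, known best from vessel walls, with 17.7 ± 0.34 in KA-SE and 18.2 ± 0.64 in saline mice (SD, n = 3 each).

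MicroRNAs known from other cells of the tissue were summed too. Such a sum is carried by the few assays of lowest Ct in it and does not measure numbers of cells. For the sum each level was taken out of the log2 scale, as 2 to the power of the level, and the sum was multiplied by 1000. The 4 miR-219 and miR-338 assays ran from 2.15 to 2.69 in KA-SE and from 0.753 to 2.61 in saline mice. The 6 neuronal microRNAs ran from 672 to 732 in KA-SE and from 185 to 585 in saline mice, without overlap. The 16 lineage microRNAs ran from 665 to 754 in KA-SE and from 146 to 620 in saline mice, also without overlap. The lowest Ct in that list were those of miR-9 and miR-138, which neurons also express, so this sum is not particular to oligodendrocytes. The 4 microglia and leukocyte microRNAs ran from 41.9 to 50.1 in KA-SE and from 40.5 to 58.8 in saline mice. In that list miR-150, with the lowest Ct, had a log2 difference over U6 of -0.06 and miR-223 had 0.07, both with overlapping groups. miR-142-3p (2.02) and miR-142-5p (1.46), arms of the same precursor, did not overlap between groups, each with an adjusted p of 0.556 in limma. In that direction 19.2% of all microRNAs did not overlap. Without saline replicate 2 the differences were 0.85 for miR-142-3p, 0.605 for miR-142-5p, -0.14 for miR-150 and -0.40 for miR-223. miR-142-3p is also the 3rd most like mmu-miR-219. The 4 of endothelium and vessel wall ran from 133 to 150.3 in KA-SE and from 61.8 to 159 in saline mice. The 5 of choroid plexus and ependyma ran from 65.1 to 76.0 in KA-SE and from 52.2 to 110.4 in saline mice. Of the erythrocyte list only miR-451 was tested, and the sum with miR-486 ran from 0.323 to 0.484 in KA-SE and from 0.0915 to 0.424 in saline mice. The sums of all lists but the neuronal and the lineage one overlapped between groups. Over U6, where 245 of 281 microRNAs were positive, the median log2 differences were 0.89 for the neuronal and 0.82 for the lineage list. Relative to the mean of tested microRNAs they were 0.24 and 0.16, beside -0.04 for all microRNAs. Without saline replicate 2 they were 0.38 and 0.24 over U6, beside 0.13 for all. Those 2 lists share miR-138, and the part of neuronal RNA in the miR-219 results was not tested.

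**Figure D4:**
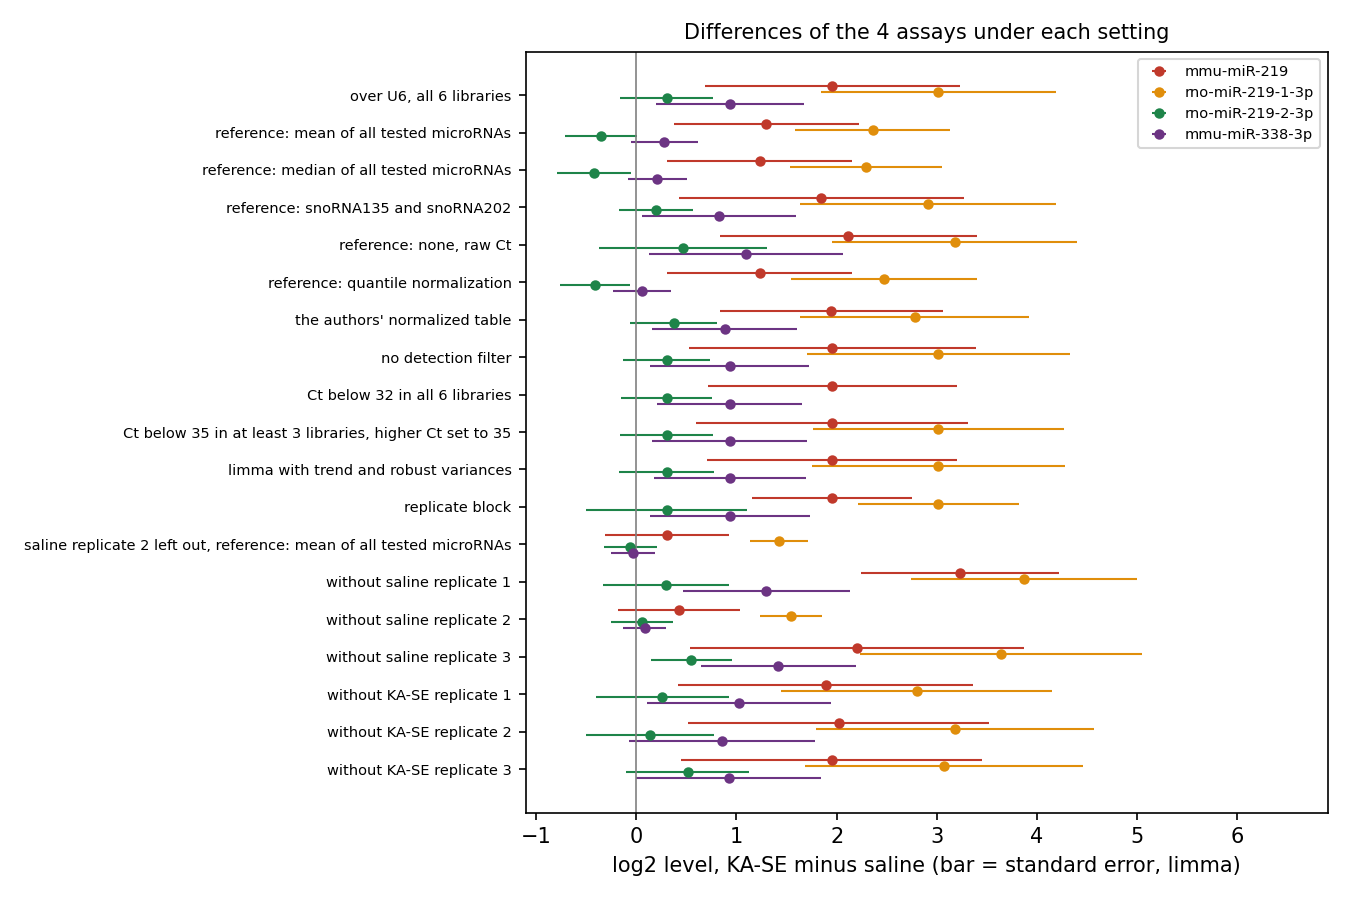
The log2 level, KA-SE minus saline, of the 4 assays under each reference RNA, detection limit, limma setting and choice of libraries, with the standard error from limma as the bar. rno-miR-219-1-3p stays above 0 throughout, at 1.42 or higher, while mmu-miR-219 runs from 0.31 to 3.23 and mmu-miR-338-3p and rno-miR-219-2-3p reach values below 0.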

How the data were processed

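MicroRNAs were measured in total RNA of the right dentate gyrus of 6 mice on mouse TaqMan fluidic cards, after cDNA synthesis from Megaplex primers. The authors deposited raw Ct values, an inverted log2 scale, a table of Ct normalized to RNU6B per the methods, also log2 and equal to raw Ct minus 1 constant per library for only part of the assays, and fold changes of each KA-SE library, which were not used. Threshold settings and instrument are not given in the sources read. Groups came from the sample titles and columns were matched to samples through their names. The card has no assay named RNU6B, so the assay MammU6 was the reference. limma 3.58.1 (R 4.3.3) was fitted without a block to every microRNA whose Ct stayed below 35 in each of the 6 libraries. Its p-values were adjusted after Benjamini-Hochberg over all 281, and a call needed an adjusted p below 0.05 with a change of 1.5-fold or more. Ct differences within a library were compared with exact permutation tests (scipy 1.17.1).

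The fit was tested on simulated data. The alternatives were other references, detection limits and tests, the authors' normalized table, the replicate number as a block, and leaving out each library. Leaving out libraries in the count against every other microRNA and in the arm pairs of other microRNAs, and the counts of positive lineage microRNAs under other settings, were added after seeing the data. The members and lists were chosen with earlier results of these data known. The microRNAs named are the 4 members, U6, the 3 most like each member and the 3 of lowest mean Ct on the lineage list. Members of the microglia and leukocyte list and of the erythrocyte list are named besides. The sources read do not pair the mice by replicate number. A Ct carries no read count, so precision rests on 3 mice a group. Sequences and gene positions are those of RefSeq, GRCm38.p6.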

Additional observations from a re-analysis of the deposited data

How the results depend on the processing

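The sign of rno-miR-219-1-3p held in all 19 alternatives run. Its adjusted p in limma and the methods' t-test ran from 0.0502, in the block fit described below, to 0.879. It was not tested at Ct below 32 in all libraries, where saline replicate 2 removes it. The sign of mmu-miR-219 held in all 20. Changing only the test, the block, the fold limit or the detection limit left these differences unchanged, so those settings could not turn a sign. rno-miR-219-2-3p turned to -0.35, -0.42 and -0.42 relative to the mean, the median and by quantile normalization, and to -0.060 without saline replicate 2 relative to the mean, where mmu-miR-338-3p turned to -0.034. The count of called microRNAs was 1 with no detection filter and 1 with Ct below 35 in at least 3 libraries, and 0 to 1 with 1 library left out, none of them a member. With 1 library left out, differences over U6 ran from 0.43 to 3.23 for mmu-miR-219, 1.54 to 3.87 for rno-miR-219-1-3p, 0.06 to 0.55 for rno-miR-219-2-3p and 0.08 to 1.42 for mmu-miR-338-3p, and the U6 Ct difference from -0.411 to 0.0805 cycles. Saline replicate 2 gave the lowest of these for all 4 assays. The causes were not tested.

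With the replicate number as a block, rno-miR-219-1-3p kept its 3.02 (adjusted p = 0.0502 in limma, 0 microRNAs called). In that fit its standard error was 0.80, the same as for every other member. Without a block it was 1.17, and the members differed. The p of 0.0502 thus rests on a variance shared between assays, not on the spread of rno-miR-219-1-3p itself. Same-numbered mice correlated at 0.189, 0.236 and 0.0475 in their deviations from the group means, and differently numbered mice at -0.291 to 0.0319. The same-numbered values were thus the higher ones. The sources read state no pairing of the mice, so the fit without a block was kept, and whether same-numbered samples shared a step was not tested. In the authors' normalized table the Ct difference of miR-219-1-3p and miR-219 was -0.83 cycles (exact permutation test, p = 0.3), and the groups overlapped. Leaving out 1 library kept the sign of every pair difference. The count of 246 ran from 246 to 265, but leaving out a library cannot lower it, so this is no check of it.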
